A study of Mus musculus with 12 samples.

Results

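Intracisternal A-particle (IAP) elements are endogenous retroviruses of the mouse genome that belong to the ERVK class. A complete copy consists of an internal region, which carries the gag, pro and pol genes, between a pair of long terminal repeats (LTRs), and the LTR holds the promoter and the polyadenylation signal. Many other copies are LTRs alone, left behind when the internal region was lost by recombination. In mouse embryonic stem (ES) cells, IAP copies are known to be silenced by KRAB zinc finger proteins, which recruit TRIM28 and the histone H3 lysine 9 methyltransferase SETDB1, and by DNA methylation.

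The 5 IAP names described here were listed by name in a table of repeats and were taken by name. They are the internal regions IAPEz-int and IAPLTR3-int and the LTR types IAPLTR1_Mm, IAPLTR1a_Mm and IAPLTR2_Mm, 5 of 1387 repeat names and 5 of 276 in the ERVK family. A further 20 names that begin with IAP served for comparison. Each name pools all copies that carry it, so the values have no single genomic position. How reads that match several copies were assigned, and whether counting used strand, is not given in the sources used here, so the split of reads between near-identical copies, between related LTR types and between sense and antisense transcripts is uncertain.

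RNA was measured by sequencing in TT2 mouse ES cells of 2 genotypes. The groups, with 3 libraries each, were double knockout (DKO) cells, in which Rlf and Zfp292 are both disrupted, after 72 hours in 5 µM retinoic acid (RA) without LIF, wild-type (WT) cells after the same RA treatment, DKO cells kept undifferentiated with LIF (serum/LIF), and WT cells in serum/LIF. The medium held knockout serum replacement and some fetal bovine serum in every group. Replicates are described as biological, but the labels do not say whether they came from separate cultures or whether the DKO line is 1 clone, so p-values measure the spread between these libraries.

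Libraries held 30869766 to 40236799 reads in genes and 2164824 to 3121854 in repeats, and the summed level of Rlf and Zfp292 was 0 to 3.52 normalized counts in DKO libraries against 5331 to 8974 in WT libraries. Replicate 2 of WT cells after RA stood apart, with 41.7% of its repeat reads in rRNA-class repeats against 4.14% to 7.28% in the other 11 libraries. The labelled cell type was checked with 8 ES cell markers, among them Pou5f1, Nanog and Sox2. Their summed level was 10306 to 11101 in DKO cells after RA and 5186 to 5692 in WT cells after RA, against 125523 to 129704 in DKO and 136251 to 141144 in WT in serum/LIF, and none was at 0 in any group.

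RNA of the internal region IAPEz-int was higher in DKO than in WT cells in both conditions, 1.71-fold after RA and 1.43-fold in serum/LIF. The other internal region, IAPLTR3-int, was 2.6985-fold higher in DKO after RA. Of the LTR types, IAPLTR2_Mm was 1.96-fold higher in DKO after RA, whereas IAPLTR1_Mm and IAPLTR1a_Mm were not called in either condition, with 95% intervals after RA that reached up to 0.52 and 0.49 on the log2 scale. Per library, 59 to 109 reads stood behind IAPLTR1a_Mm, 177 to 346 behind IAPLTR1_Mm, 126 to 329 behind IAPLTR2_Mm, 35 to 154 behind IAPLTR3-int and 3541 to 7643 behind IAPEz-int, and the precision of the fold changes differed accordingly. In RNA from whole cultures, fewer cells that express a repeat and less of its RNA per cell cannot be told apart.

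**Figure D1:**
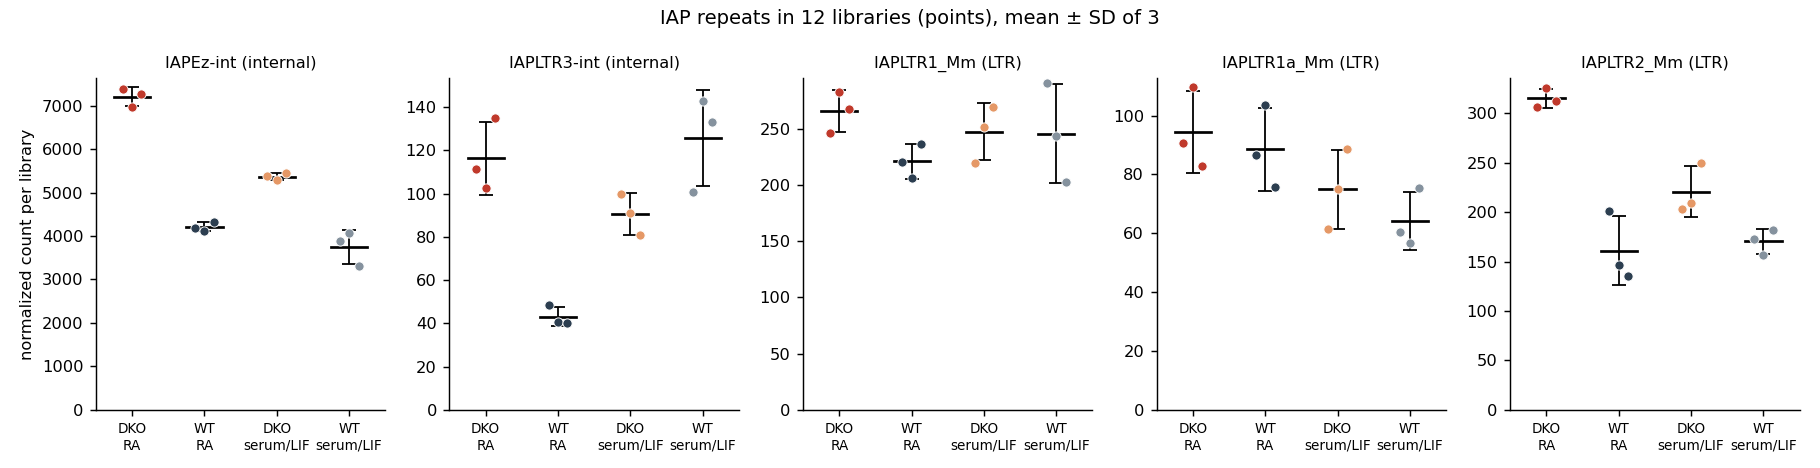
Normalized counts of the 5 IAP repeats in each of the 12 libraries (points), with the mean and SD of the 3 libraries of a group (bars); each panel has its own linear axis from 0. For IAPEz-int the DKO libraries lie above the WT libraries in both conditions, for IAPLTR3-int the WT libraries after RA lie at 40.2 to 48.4, below all others, and for IAPLTR1_Mm and IAPLTR1a_Mm most groups overlap.

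IAPEz-int had 7379, 6963 and 7273 normalized counts in the DKO libraries after RA, against 4180, 4121 and 4323 in the WT libraries after RA. In serum/LIF it had 5381, 5277 and 5441 in DKO and 3886, 4059 and 3312 in WT. Each group lay clear of the others, in the order DKO after RA, DKO in serum/LIF, WT after RA and WT in serum/LIF, of which the place of WT after RA against WT in serum/LIF depended on the scaling described with the RA comparisons. The means were 7205 ± 216 in DKO and 4208 ± 104 in WT after RA (SD, n = 3 each), and 5366 ± 82.8 in DKO and 3752 ± 391 in WT in serum/LIF (SD, n = 3 each). The log2 fold change of DKO over WT, fitted on log2(normalized count + 1), was 0.78 ± 0.05 after RA (SE; limma adjusted p = 3.8e-10) and 0.52 ± 0.05 in serum/LIF (SE; limma adjusted p = 3.67e-07). IAPEz-int was called in both comparisons in all 24 alternative analyses, which gave 0.76 to 0.84 after RA and 0.43 to 0.58 in serum/LIF.

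IAPLTR3-int, the other internal region, had 111.2, 102.8 and 135.1 normalized counts in DKO libraries after RA and 48.4, 40.7 and 40.2 in WT libraries after RA. In serum/LIF it had 99.99, 91.1 and 80.8 in DKO and 100.7, 143.1 and 133.3 in WT. The WT libraries after RA were the lowest of all, WT in serum/LIF had the highest mean and overlapped DKO after RA, and in serum/LIF the highest DKO library was just below the lowest WT library. DKO over WT was 1.41 ± 0.18 on the log2 scale after RA (SE; limma adjusted p = 2.6e-06), and this call was made in all 24 alternative analyses. In serum/LIF the log2 fold change was −0.46 ± 0.18, with a 95% interval of −0.83 to −0.08, and it missed the threshold (SE; limma adjusted p = 0.13).

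IAPLTR2_Mm was the LTR type called between genotypes. It had 307, 325 and 313 normalized counts in DKO libraries after RA and 201, 147 and 135 in WT libraries after RA. In serum/LIF it had 203, 209 and 250 in DKO and 173, 157 and 182 in WT. DKO and WT libraries did not overlap in either condition. The difference after RA was 0.99 ± 0.14 on the log2 scale (SE; limma adjusted p = 7.16e-06), and the difference in serum/LIF, 0.37 ± 0.14, missed the threshold (SE; limma adjusted p = 0.0944).

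IAPLTR1_Mm had 246, 283 and 267 normalized counts in DKO libraries after RA and 220, 206 and 236 in WT libraries after RA, against 220, 252 and 270 in DKO and 290, 244 and 203 in WT in serum/LIF. The 3 DKO libraries were above the 3 WT libraries after RA, and the groups overlapped in serum/LIF. Its log2 fold change of DKO over WT was 0.26 ± 0.13 after RA (SE; limma adjusted p = 0.213; 95% interval 0.01 to 0.52) and 0.02 ± 0.13 in serum/LIF (SE; limma adjusted p = 0.943; 95% interval −0.24 to 0.28). IAPLTR1a_Mm had 90.6, 109.8 and 82.8 normalized counts in DKO and 86.5, 103.6 and 75.6 in WT after RA, and 61.5, 74.9 and 88.5 in DKO and 60.4, 56.7 and 75.3 in WT in serum/LIF. Its genotypes overlapped in both conditions, with log2 fold changes of 0.09 ± 0.19 after RA (SE; limma adjusted p = 0.832; 95% interval −0.31 to 0.49) and 0.22 ± 0.19 in serum/LIF (SE; limma adjusted p = 0.579; 95% interval −0.18 to 0.62).

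**Figure D2:**
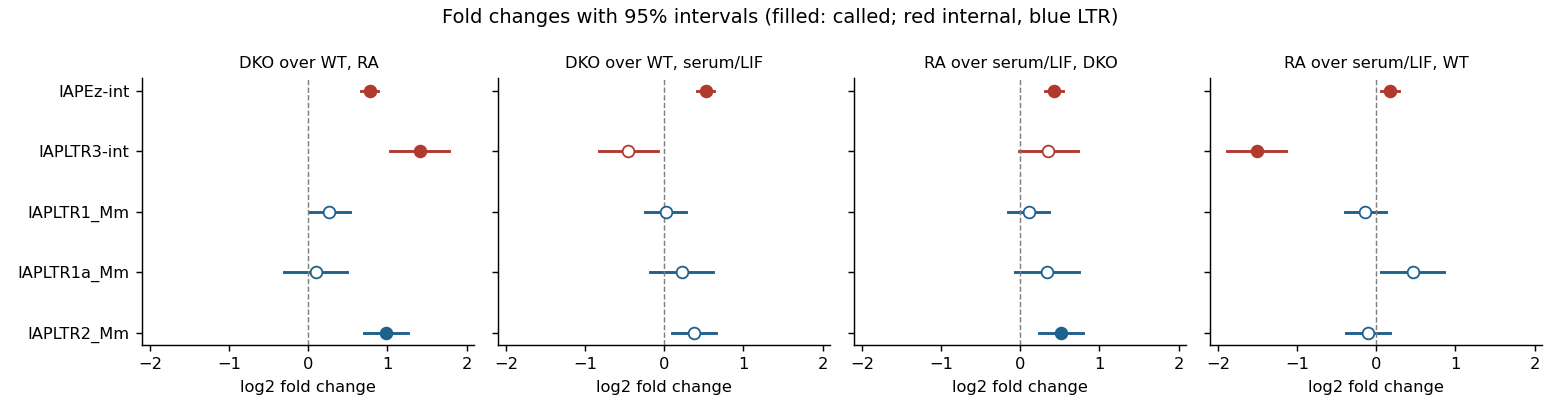
Log2 fold changes of the 5 IAP repeats (points; filled where the limma adjusted p was under 0.05) with 95% intervals (lines) for 4 comparisons, internal regions in red and LTR types in blue. IAPEz-int is filled in all 4 panels, at 0.78, 0.52, 0.42 and 0.17, the last of which is −0.16 with the gene table's size factors, IAPLTR3-int is filled at 1.41 and −1.51, and IAPLTR1_Mm and IAPLTR1a_Mm are open throughout.

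Counted over the 5 names, 3 were called higher in DKO after RA and none lower, with a median log2 fold change of 0.78, where of the 1170 repeats tested 11.0% were called, 5.47% higher and 5.56% lower, and the median of all was 0.01. In serum/LIF 1 was called higher and none lower, with a median of 0.22, against 9.83% of all repeats called, 5.56% higher and 4.27% lower, with a median of 0.01. Groups did not overlap for 4 of the 5 after RA, all with DKO above WT, where 27.3% of all repeats did not overlap, 12.6% with DKO above WT and 14.7% below. In serum/LIF 2 had DKO above WT without overlap and IAPLTR3-int had DKO below WT, where 26.8% of all repeats did not overlap, 13.5% with DKO above and 13.3% below. In rank of the fold change after RA, IAPLTR3-int was at place 7, IAPLTR2_Mm at 15 and IAPEz-int at 34 of the 1170 repeats, and in serum/LIF IAPEz-int was at 67. The authors' deposited table gave the same call and sign as the fit used here in 20 of 20 combinations of these repeats and the 4 pairwise comparisons.

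Whether the genotype difference itself changed with RA was tested as an interaction, the difference after RA minus that in serum/LIF. For IAPLTR3-int it was 1.86 ± 0.26 on the log2 scale (SE; limma adjusted p = 1.89e-05), called in all 23 alternative analyses. For IAPEz-int it was 0.25 ± 0.07 (SE; limma adjusted p = 0.0437), but it was called in 9 of 23 alternative analyses. Among the leave-one-out fits the call was lost when any 1 of 11 libraries was left out, with adjusted p of up to 0.129, and was kept without replicate 3 of WT cells in serum/LIF, where the interaction was 0.34. For IAPLTR2_Mm it was 0.62 ± 0.19 and missed the threshold (SE; limma adjusted p = 0.0531), but it was called in 7 of 23 alternative analyses. IAPEz-int and IAPLTR2_Mm thus lay close to the threshold, on either side of it. IAPLTR1_Mm (0.24 ± 0.18) and IAPLTR1a_Mm (−0.12 ± 0.27) were not called. Thus 2 of 5 were called, both upward, against 6.67% of all repeats, 2.82% upward and 3.85% downward.

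IAPLTR3-int was 2.91-fold lower in WT cells after RA than in serum/LIF, −1.51 ± 0.18 on the log2 scale (SE; limma adjusted p = 1.14e-07), and its call was made in all 24 alternative analyses. In DKO cells the same comparison gave 0.35 ± 0.18, which missed the threshold (SE; limma adjusted p = 0.118; 95% interval −0.02 to 0.73). IAPEz-int was 1.34-fold higher after RA in DKO cells, 0.42 ± 0.05 on the log2 scale (SE; limma adjusted p = 8.14e-07).

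In WT cells the IAPEz-int difference between RA and serum/LIF depended on how libraries were scaled. It was 0.17 ± 0.05 with the repeat table's own scaling (SE; limma adjusted p = 0.0103), and −0.16 when the reads were scaled by the size factors of the gene table (limma adjusted p = 0.036), a scaling that put the median of all repeats at −0.235 in DKO and −0.341 in WT for RA over serum/LIF. Without replicate 3 of WT cells in serum/LIF the value was 0.08 and was not called (limma adjusted p = 0.103). In DKO cells the IAPEz-int increase kept its sign and call under the gene table's scaling, at 0.18 (limma adjusted p = 0.0236). The genotype differences moved little with that scaling, to 0.84 after RA and 0.50 in serum/LIF.

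Of the LTR types, IAPLTR2_Mm was 1.43-fold higher after RA in DKO cells, 0.52 ± 0.14 on the log2 scale (SE; limma adjusted p = 0.00274), and with the gene table's scaling it was at 0.27 and was not called (limma adjusted p = 0.0927). In WT cells its difference was −0.10 ± 0.14 (SE; limma adjusted p = 0.577). IAPLTR1_Mm differed by 0.11 ± 0.13 in DKO and −0.14 ± 0.13 in WT, and IAPLTR1a_Mm by 0.33 ± 0.19 in DKO and 0.46 ± 0.19 in WT, none of them called (limma adjusted p = 0.538, 0.39, 0.168 and 0.0532). In DKO cells 2 of 5 were called higher with RA, where 46.3% of all repeats were called, 23.4% higher and 22.9% lower. In WT cells 1 was called higher and 1 lower, where 50.0% were called, 24.7% higher and 25.3% lower. Groups did not overlap for 3 of 5 in DKO cells, all with RA above serum/LIF, where 54.2% of all repeats did not overlap, 27.3% with RA above and 26.9% below. In WT cells 2 had RA above and 1 had RA below without overlap, where 56.1% of all repeats did not overlap, 27.9% with RA above and 28.2% below. These shares are near the background, and only the values of single repeats are read from the RA comparisons.

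Replicate 2 of WT cells after RA, the library rich in rRNA-class repeats, was also left out. Without it, the calls of IAPLTR3-int, and those of IAPEz-int other than its interaction, were kept. DKO over WT after RA was 0.76 for IAPEz-int (limma adjusted p = 5.23e-07), 1.37 for IAPLTR3-int (1.61e-05) and 0.93 for IAPLTR2_Mm (6.25e-05). RA over serum/LIF in WT was then −1.47 for IAPLTR3-int (limma adjusted p = 6.89e-07) and 0.19 for IAPEz-int (0.024). The interaction was 1.83 for IAPLTR3-int (limma adjusted p = 5.1e-05) and 0.24 for IAPEz-int, which was not called (0.129).

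The internal regions were compared with the LTR types through the ratio of their normalized counts within each library, in which the scaling of the library cancels apart from the added pseudocount. Element lengths were not used, so only differences of a ratio between groups are described, not its absolute size. IAPEz-int over IAPLTR1_Mm was 29.98, 24.6 and 27.2 in DKO libraries after RA and 19.0, 20.01 and 18.3 in WT libraries after RA. In serum/LIF it was 24.5, 20.95 and 20.2 in DKO and 13.4, 16.6 and 16.4 in WT. The DKO libraries lay above the WT libraries in each condition without overlap, and within each genotype the RA libraries lay above those in serum/LIF without overlap.

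With libraries permuted within condition, this ratio was 1.42-fold higher in DKO than in WT (two-sided exact permutation test over 400 arrangements, p = 0.005, the smallest they can give; adjusted p = 0.03 over 12 tests). Permuted within genotype, it was 1.24-fold higher after RA than in serum/LIF (two-sided exact permutation test, p = 0.005; adjusted p = 0.03). Within 1 condition the DKO over WT ratio was 1.43-fold after RA and 1.42-fold in serum/LIF, where 3 against 3 libraries allow no exact p under 0.1. With replicate 2 of WT cells after RA left out, both had an adjusted p of 0.06 (exact permutation test), with log2 differences of 0.52 and 0.30 against 0.51 and 0.31 with all libraries. The unadjusted exact p was then 0.005 for DKO against WT, the smallest that the 200 arrangements left can give, and 0.01 for RA against serum/LIF. The same adjusted p resulted without any 1 of 4 other libraries, replicate 2 of DKO in serum/LIF and replicates 1, 2 and 3 of DKO after RA.

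IAPEz-int over IAPLTR1a_Mm was 1.41-fold higher in DKO, with 6 of 6 DKO libraries above the WT mean of their condition, and missed the threshold (two-sided exact permutation test, p = 0.03; adjusted p = 0.09). Its means were 77.6 ± 12.7 in DKO and 48.4 ± 8.72 in WT after RA (SD, n = 3 each), and 73.2 ± 13.2 in DKO and 59.98 ± 14.3 in WT in serum/LIF. The genotypes were apart after RA but overlapped in serum/LIF. There WT replicate 2, at 71.6, lay above DKO replicates 2 and 3, at 70.5 and 61.5. IAPEz-int over IAPLTR2_Mm had means of 22.9 ± 1.36 in DKO and 26.95 ± 5.65 in WT after RA, and 24.5 ± 2.45 in DKO and 22.2 ± 3.87 in WT in serum/LIF. For this LTR type the genotypes overlapped in both conditions and the ratio of ratios was 0.98 (two-sided exact permutation test, p = 0.845; adjusted p = 0.845).

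The ratios of IAPLTR3-int to the 3 LTR types lay above WT in DKO cells after RA and below it in serum/LIF. None of the 3 is IAPLTR3, the LTR type with the matching name, and no ratio to IAPLTR3 was taken. After RA the DKO libraries lay above the WT libraries for each LTR type, by 2.21-fold for IAPLTR1_Mm, 2.49-fold for IAPLTR1a_Mm and 1.34-fold for IAPLTR2_Mm. In serum/LIF the corresponding values of DKO over WT were 0.72, 0.63 and 0.56, with overlap for IAPLTR1_Mm and without it for the other LTR types. The change of these ratios between conditions was not tested. Tested over both conditions together, none of the 3 passed the threshold (two-sided exact permutation test, adjusted p = 0.54, 0.6 and 0.607), and of the RA against serum/LIF tests the nearest was IAPLTR3-int over IAPLTR2_Mm, at 0.58 (two-sided exact permutation test, p = 0.02; adjusted p = 0.08).

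**Figure D3:**
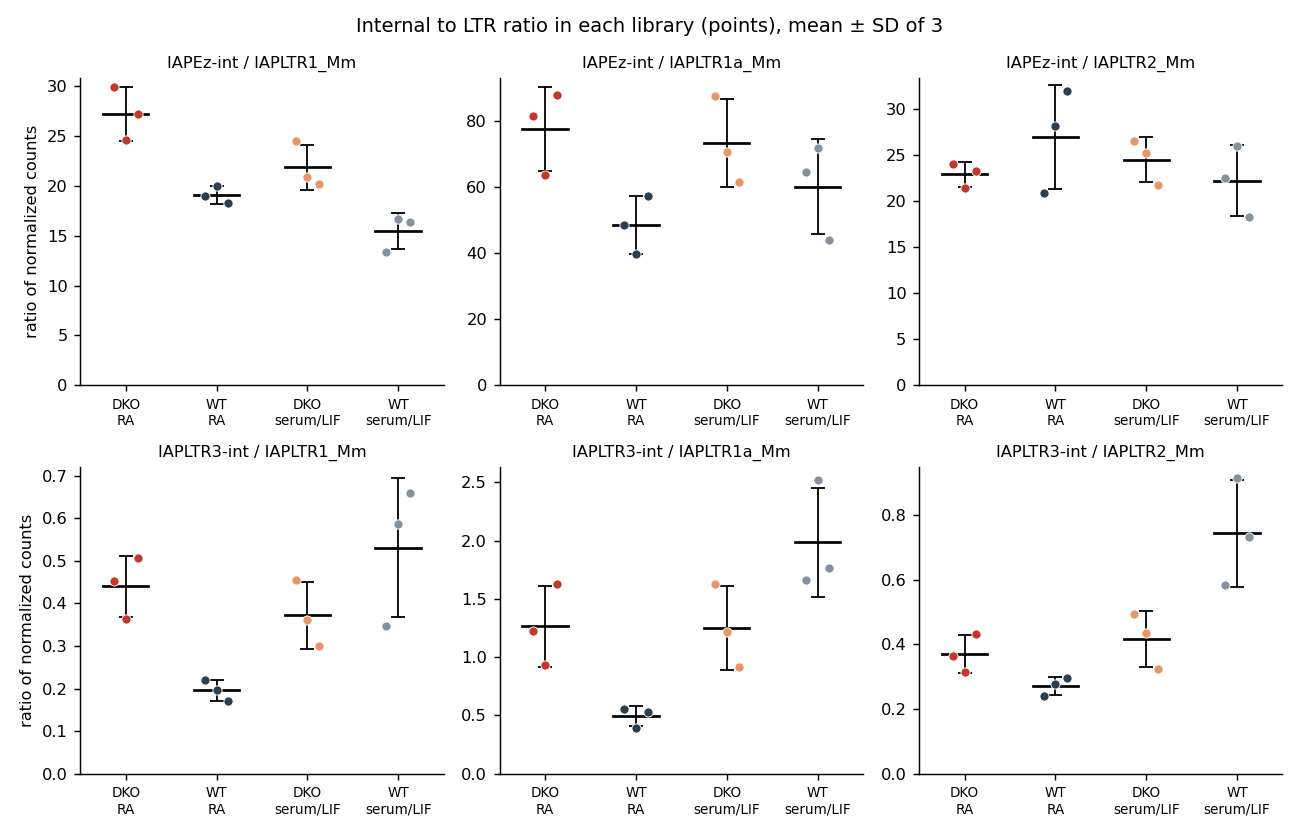
Ratio of the normalized count of an internal region to that of an LTR type in each library (points), with the mean and SD of 3 libraries (bars); linear axes from 0. The ratio of IAPEz-int to IAPLTR1_Mm is 24.6 to 29.98 in DKO and 18.3 to 20.01 in WT after RA and 20.2 to 24.5 in DKO and 13.4 to 16.6 in WT in serum/LIF, whereas the ratio to IAPLTR2_Mm overlaps between genotypes.

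Among the 20 other names that begin with IAP, 8 are internal regions and 12 are LTR types, and 19 passed the filter on low values, all but the internal region IAPEY5_I-int. After RA, 4 of 7 internal regions tested were higher in DKO and 1 was lower, and 1 of 12 LTR types was higher and none lower, where 5.47% of all repeats were called higher and 5.56% lower. That LTR type was IAPLTR2a (0.53 ± 0.12, SE; limma adjusted p = 0.00374), whose name is close to IAPLTR2_Mm. Of like names, IAPLTR2b gave 0.59 ± 0.20 without overlap and IAPLTR2a2_Mm 0.03 ± 0.14 with overlap, neither of them called (SE; limma adjusted p = 0.0632 and 0.927). These were named after their values were seen. In serum/LIF, 2 of 7 internal regions and none of 12 LTR types were higher, and none was lower, where 5.56% of all repeats were called higher and 4.27% lower. The internal regions called higher in either condition include IAPA_MM-int, which passed the filter only through its DKO libraries. The count for LTR types was near the share of all repeats, and the difference between internal regions and LTR types was not tested. The standard errors ran from 0.08 to 0.56 for these internal regions and from 0.12 to 0.43 for the LTR types.

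The largest difference between genotypes in this group was in the internal region IAPA_MM-int in both conditions. It had 49.4, 56.4 and 44.7 normalized counts in DKO and 6.18, 3.49 and 7.85 in WT after RA, and 27.1, 35.4 and 35.0 in DKO and 10.1, 5.76 and 7.79 in WT in serum/LIF. DKO was above WT without overlap, by 2.95 ± 0.37 on the log2 scale after RA (SE; limma adjusted p = 2.15e-06) and 1.93 ± 0.37 in serum/LIF (SE; limma adjusted p = 0.000905), from 3 to 12 reads per WT library. IAPA_MM-int passed the filter on low values only through its DKO libraries, so its calls are given as a description only. The next after RA was the LTR type IAPEY3C_LTR, with 6.18, 9.07 and 6.66 normalized counts in DKO and 17.5, 18.6 and 15.7 in WT. These did not overlap, but the log2 fold change of −1.15 ± 0.43 missed the threshold (SE; limma adjusted p = 0.0897). IAPEY3C_LTR passed the filter only through its WT libraries. The third was the internal region IAPEy-int, with means of 51.4 in DKO and 101.0 in WT and a called log2 fold change of −0.96 ± 0.25 (SE; limma adjusted p = 0.0116). In serum/LIF the next were IAPLTR4_I (0.91 ± 0.56) and IAPEY3C_LTR (−0.62 ± 0.43), whose groups overlapped and which were not called (SE; limma adjusted p = 0.359 and 0.42). In the interaction the 3 largest values, 1.02 ± 0.53 in IAPA_MM-int, −0.91 ± 0.36 in IAPEy-int and −0.79 ± 0.60 in IAPLTR4, were not called (SE; limma adjusted p = 0.299, 0.137 and 0.528). A smaller value, 0.63 ± 0.12 in IAPEY3-int, was called (SE; limma adjusted p = 0.00214). It was the 1 call among the 19 tested, where 6.67% of all repeats were called, 2.82% upward and 3.85% downward.

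The other repeat of this group called in serum/LIF was IAP-d-int, named after its values were seen. It had 562, 550 and 615 normalized counts in DKO and 406, 406 and 397 in WT, a log2 fold change of 0.51 ± 0.08 (SE; limma adjusted p = 3.29e-05). After RA it was higher in DKO by 0.45 ± 0.08 (SE; limma adjusted p = 0.000136). IAPLTR3, the LTR type whose name matches IAPLTR3-int, had 40.2, 21.2 and 31.4 normalized counts in DKO and 31.9, 18.6 and 36.3 in WT after RA, which overlapped, and gave 0.10 ± 0.36 (SE; limma adjusted p = 0.908; 95% interval −0.65 to 0.84). It was singled out for its name and not by the rule for naming repeats.

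With RA, under the repeat table's own scaling, 8 of the 19 were higher and 2 lower in DKO cells, where 23.4% of all repeats were called higher and 22.9% lower. In WT cells 6 were higher and 2 lower, where 24.7% were called higher and 25.3% lower. Together the calls were near the 46.3% of all repeats called in DKO cells and the 50.0% called in WT cells. The 3 largest differences in DKO cells were 1.87 ± 0.10 in IAPEY4_I-int and −1.66 ± 0.19 in IAPEY2_LTR, both called, and −1.19 ± 0.56 in IAPLTR4_I, which was not called (SE; limma adjusted p = 2.06e-11, 5.05e-08 and 0.0888). In WT cells they were 1.96 ± 0.25 in IAPEy-int, −1.89 ± 0.19 in IAPEY2_LTR and −1.75 ± 0.09 in IAPEY3-int, all called (SE; limma adjusted p = 3.53e-07, 3.75e-09 and 7.56e-15). Of the 236 ERVK repeats tested without an IAP name, 20 were higher and 14 lower in DKO than in WT after RA, where 5.47% of all repeats were called higher and 5.56% lower. In serum/LIF 12 were higher and 17 lower in DKO, where 5.56% of all repeats were called higher and 4.27% lower.

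**Figure D4:**
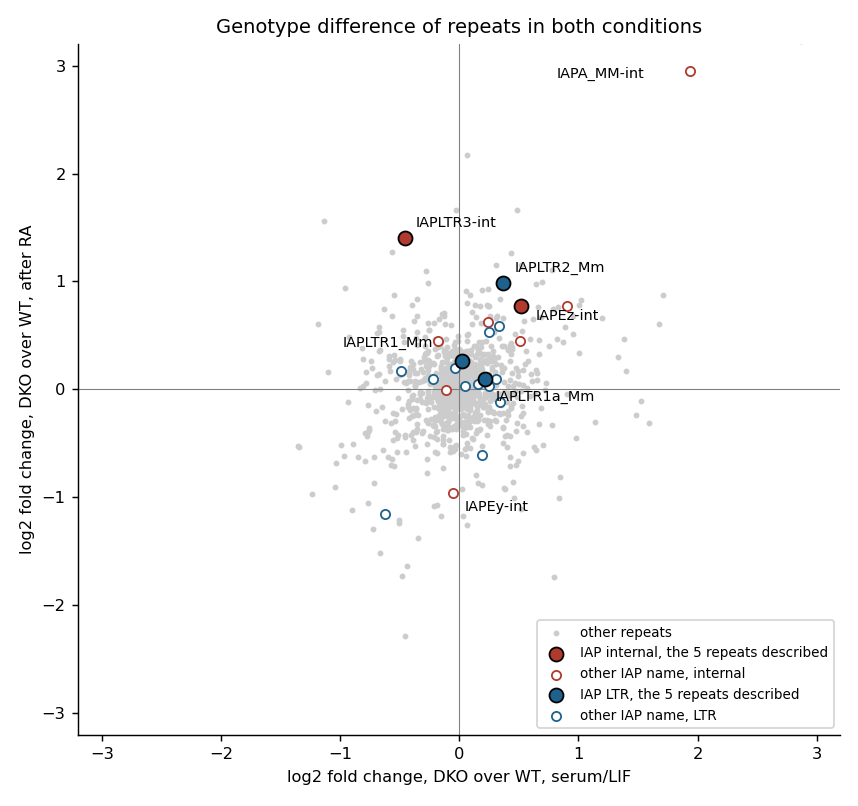
Log2 fold change of DKO over WT in serum/LIF (horizontal axis) and after RA (vertical axis) for the repeats tested (grey), with the 5 IAP repeats described (filled) and the other IAP names (open), internal regions in red and LTR types in blue; 2 of the 1170 repeats lie outside the axes. IAPEz-int lies at 0.52 and 0.78, IAPLTR3-int at −0.46 and 1.41, IAPLTR2_Mm at 0.37 and 0.99, and IAPLTR1_Mm and IAPLTR1a_Mm near the centre.

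Likeness of pattern was measured as the root mean square difference of centred log2(normalized count + 1) over the 12 libraries, and is given as a description. Repeats share 1 scaling, whereas genes carry the gene table's size factors. Within the 5 repeats, IAPEz-int was nearest to IAPLTR2_Mm (0.21), then to IAPLTR1_Mm (0.32), IAPLTR1a_Mm (0.36) and IAPLTR3-int (0.63). Of all other repeats, the nearest to IAPEz-int were the internal regions MurERV4_19-int (0.13), MMERGLN-int (0.17) and MMERVK10C-int (0.18), of the families ERVK, ERV1 and ERVK. MurERV4_19-int had means of 1031 in DKO and 605 in WT after RA, and 656 in DKO and 552 in WT in serum/LIF. MMERGLN-int and MurERV4_19-int were also the nearest to IAPLTR2_Mm (0.21 and 0.22), followed by L1_Mur1 (0.24).

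IAPLTR3-int was farther from every other repeat, the nearest being MuRRS4-int (0.35), LTR33B (0.36) and the simple repeat (TTAGGG)n (0.38). The nearest to IAPLTR1_Mm were L1VL2, Charlie1 and L1_Mur3 (0.10, 0.12 and 0.12), and the nearest to IAPLTR1a_Mm were G-rich, (CGAG)n and (CAG)n (0.15, 0.16 and 0.17). Among the genes near to IAPEz-int were Aif1l (0.10), Tagln2 (0.10), Pls3 (0.11) and Vcan (0.11), with repeats and genes each in their own scaling. With the gene table's size factors, IAPEz-int was at −0.16 for RA over serum/LIF in WT. There Aif1l was at 0.30, Tagln2 at 0.17, Pls3 at 0.30 and Vcan at 0.40. The likeness to these genes thus depends on the scaling, and distances under a shared scaling were not computed.

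Genes of retroelement silencing, chromatin and DNA methylation were followed in the gene table as a list of 36 regulators, all of them tested. The list was not limited to genes known to act on IAP elements. After RA, 11 were higher and 8 lower in DKO, with a median log2 fold change of 0.04, where 42.7% of 15750 genes were called, 22.0% upward and 20.7% downward. In serum/LIF, 6 were higher and 14 lower, with a median of −0.06, against 33.2% of genes called, 17.8% upward and 15.4% downward. In the interaction 14 were higher and 4 lower, against 30.8% of genes, 14.8% upward and 16.0% downward. Trim28, the corepressor that binds KRAB zinc finger proteins, had means of 28088 in DKO and 26350 in WT after RA (log2 fold change 0.09 ± 0.03, SE; limma adjusted p = 0.0315) and 68107 in DKO and 71575 in WT in serum/LIF (−0.07 ± 0.03, SE; limma adjusted p = 0.108). Setdb1, which encodes the histone methyltransferase recruited by TRIM28, had means of 4141 in DKO and 4290 in WT after RA and 6457 and 6244 in serum/LIF, and was not called in either (limma adjusted p = 0.334 and 0.389).

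The regulators with the largest increases in DKO after RA were Zfp809 (0.94 ± 0.08), Dnmt3l (0.72 ± 0.04), a cofactor of de novo DNA methylation, and Tet2 (0.51 ± 0.06), which encodes a 5-methylcytosine oxidase. Zfp809 encodes a KRAB zinc finger protein that recognises a proviral primer binding site, and whether it binds IAP copies was not examined. The largest decreases were in Chaf1a (−0.68 ± 0.04), which encodes the large subunit of the chromatin assembly factor CAF-1, Hells (−0.38 ± 0.04), a chromatin remodeller needed for DNA methylation, and Suv39h1 (−0.27 ± 0.05), a histone H3 lysine 9 methyltransferase gene (SE; limma adjusted p at most 0.000115 for all 6). Chaf1a had 5719, 5808 and 5753 normalized counts in DKO and 9314, 9360 and 9036 in WT after RA, and the groups did not overlap. In serum/LIF the largest increases were in Suv39h1 (0.59 ± 0.05), Dnmt3l (0.52 ± 0.04) and Zfp809 (0.26 ± 0.08), and the largest decreases in Tet2 (−0.84 ± 0.06), Atf7ip (−0.58 ± 0.06), which encodes a partner of SETDB1, and the DNA methyltransferase gene Dnmt3a (−0.45 ± 0.04; SE; limma adjusted p at most 0.0176 for all 6).

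With RA, most regulators fell in both genotypes. In DKO cells 25 of 36 were lower and 7 higher, where 78.3% of genes were called, 38.2% downward and 40.2% upward. In WT cells 28 were lower and 6 higher, where 80.6% of genes were called, 39.2% downward and 41.4% upward. The largest decreases were in the de novo methyltransferase gene Dnmt3b (−3.67 ± 0.04 in DKO, −3.57 ± 0.04 in WT), the methylcytosine oxidase gene Tet1 (−3.01 ± 0.08 in DKO, −3.80 ± 0.08 in WT) and Dnmt3l (−2.95 ± 0.04 in DKO, −3.16 ± 0.04 in WT), all called. The largest increase in each was in Suv39h1 (1.4449 ± 0.05 in DKO, 2.30 ± 0.05 in WT). The next were Rcor1, a CoREST gene (0.72 ± 0.05), and Zfp809 (0.50 ± 0.08) in DKO, and Chaf1a (0.80 ± 0.04) and Rcor1 (0.71 ± 0.05) in WT. The part of these genes in the IAP differences was not tested.

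**Figure D5:**
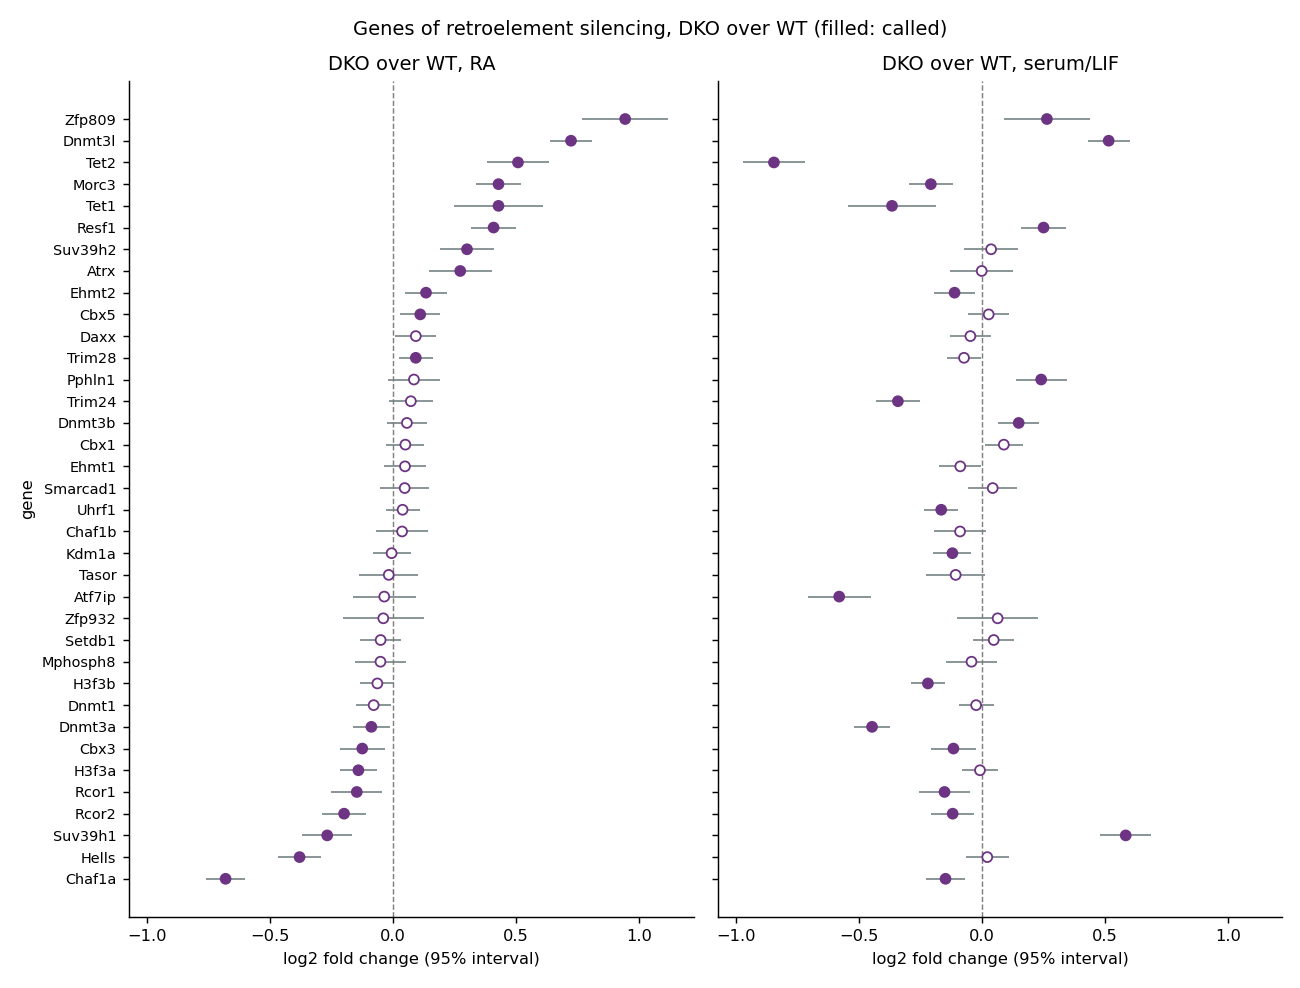
Log2 fold change of DKO over WT (points; filled where the limma adjusted p was under 0.05) with 95% intervals (lines) for 36 genes of retroelement silencing, chromatin and DNA methylation, after RA (left) and in serum/LIF (right), ordered by the value after RA. Zfp809 at 0.94 and Chaf1a at −0.68 are the extremes after RA, and Suv39h1 at 0.59 and Tet2 at −0.84 in serum/LIF.

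Markers of other cell types also differed between the genotypes. Of all genes tested, 22.0% were called higher and 20.7% lower in DKO after RA, and 17.8% higher and 15.4% lower in serum/LIF, beside which the marker counts stand. The 6 fibroblast markers were Col1a1, Col1a2, Col3a1, Thy1, Acta2 and Tagln, and not all are particular to fibroblasts. Of these, 4 were higher in DKO after RA and 5 in serum/LIF, and none was lower. Their summed level was 62279 to 64753 in DKO and 48398 to 50179 in WT after RA, and 21971 to 23361 in DKO and 7257 to 7352 in WT in serum/LIF. In serum/LIF Col3a1 was 6.16-fold, Acta2 4.26-fold and Tagln 3.90-fold higher in DKO. Thy1, with means of 121 in DKO and 128 in WT, was not called there. Of the 8 ES cell markers, all were higher in DKO after RA, and in serum/LIF 4 were lower and none higher. Of 4 endoderm markers, 3 were higher in DKO after RA and 1 in serum/LIF, with sums of 1389 to 1629 in DKO and 1270 to 1393 in WT after RA, and 74.4 to 77.5 in DKO and 44.9 to 80.2 in WT in serum/LIF.

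Of 6 neural markers, 1 was higher and 5 lower in DKO after RA and 4 were higher and 1 lower in serum/LIF, with sums of 12533 to 12753 in DKO and 14592 to 14907 in WT after RA, and 13501 to 14282 in DKO and 10539 to 11217 in WT in serum/LIF. The 6 two-cell-like markers, which include Zscan4 genes, were lower in DKO, 6 of 6 after RA and 5 of 6 in serum/LIF, where IAPEz-int was higher. They summed to 80.8 to 94.8 in DKO and 3250 to 3336 in WT after RA, and to 2.35 to 11.5 in DKO and 152 to 154 in WT in serum/LIF. In DKO cells in serum/LIF 2 of these 6 were at 0 in the group, and no other marker of these lists was at 0 in a group. With RA, 5 of 6 two-cell-like markers were higher in DKO cells and 6 of 6 in WT cells, and 5 of 6 fibroblast markers were higher and 1 lower in each genotype, where 40.2% of genes were called higher in DKO cells and 41.4% in WT cells. The part of cell type in the IAP differences was not tested.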

How the data were processed

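RNA of 12 libraries was analysed from the authors' tables of genes and repeats. Per the submitters' processing notes, DESeq2 1.44.0, STAR 2.7.11b, Trim Galore 0.6.10 and the featureCounts program of Subread 2.0.6 were used, with the mm10 build. The deposited library columns hold a signal, counts divided by a size factor of each library and table (100% of values within 0.01 of a whole read once multiplied back). Per the file headers, the authors also gave log2 fold changes and p-values, raw and adjusted, and these were set beside the calls made here.

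Since the values are normalized, limma 3.58.1 (R 4.3.3; trend and robust settings) was fitted on log2(value + 1) with a mean per group over all 12 libraries, which for low repeats understates the change. Repeats or genes with 10 or more in at least 3 libraries entered: 1170 repeats, with 217 below the filter, and 15750 genes, with 2151 below it. All 5 IAP repeats passed. A call is a Benjamini-Hochberg adjusted p under 0.05 over the whole table, and folds are ratios of group means. Intervals are 95%. The statistic was tested on simulated data.

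Log2 ratios of internal region to LTR type, each with 1 added to both counts, were compared by exact permutation within condition or genotype, adjusted over 12 tests. Alternatives included edgeR 4.0.16 and DESeq2 1.42.0 on recovered reads, other scalings, pseudocounts and filters, a replicate block, and each library left out.

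The IAP repeats, the gene lists and the naming rule were chosen with earlier results of these data known. The rule names the 5 repeats, the 3 largest changes per comparison among other IAP names, the 3 nearest repeats to each and the 5 genes nearest to IAPEz-int, and the 3 regulators called with the largest changes in each direction. Of the 5 genes, 4 are given, and 1 is not reported here.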

Additional observations from a re-analysis of the deposited data

Results flagged for a closer look

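The genotype difference was not the same after RA as in serum/LIF for the repeats and genes below. Each value is the log2 difference of DKO over WT after RA minus that in serum/LIF, past an adjusted p of 0.05 in limma's interaction test, which 6.67% of repeats and 30.8% of genes passed. Among the IAP repeats it was 1.86 for IAPLTR3-int, 0.63 for IAPEY3-int and 0.25 for IAPEz-int, the last of which was lost when any 1 of 11 libraries was left out. Among repeats of like pattern it was 0.84 for MuRRS4-int, 0.52 for MurERV4_19-int, 0.50 for L1_Mur1 and 0.36 for MMERGLN-int. These 4 were picked for likeness to the IAP repeats over the same 12 libraries. Their passing follows in part from that choice and is no independent result.

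Of the 36 regulators 14 passed upward and 4 downward, and only those named by the naming rule are given. The difference was upward for Tet2 (1.35), Tet1 (0.79), Zfp809 (0.68), Atf7ip (0.54), Dnmt3a (0.36) and Dnmt3l (0.21). It was downward for Suv39h1 (−0.85), Chaf1a (−0.53) and Hells (−0.40). For Tet1, Tet2 and Suv39h1 the genotype difference was called in both conditions with opposite signs, 0.43 after RA and −0.36 in serum/LIF for Tet1, 0.51 after RA and −0.84 in serum/LIF for Tet2, and −0.27 after RA and 0.59 in serum/LIF for Suv39h1.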

How the results depend on the processing

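Of 590 alternative fold changes of the 5 IAP repeats, 558 stayed on their side of the threshold, 18 lost a call and 13 gained one, and 10 changed sign. The called value that reversed was RA over serum/LIF for IAPEz-int in WT, at −0.16 with the gene table's size factors. That scaling called 1 of 5 in DKO and 4 in WT for RA over serum/LIF, and gave 153 repeats higher and 468 lower in DKO, and 155 and 558 in WT. It also gave 80 higher and 37 lower for DKO over WT after RA and 42 and 28 in the interaction. Scaling by repeat reads without rRNA gave 51 higher and 78 lower in serum/LIF and 45 and 34 in the interaction. Without limma's trend and robust settings 1 of 5 was called for RA over serum/LIF in WT and 1 in the interaction, and over all repeats 62 in serum/LIF and 47 in the interaction. With a pseudocount of 10, 2 ratios of DKO over WT passed. The causes were not tested.

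With libraries left out in turn, the number called of 5 was 1 to 2 for DKO over WT in serum/LIF and 3 after RA. It was 2 for RA in DKO, 2 to 3 for RA in WT, and 1 to 2 for the interaction. The additional call in serum/LIF was IAPLTR2_Mm, at a limma adjusted p that rounds to 0.05. The gained calls above were counted from rounded values and leave it out. Ratios past the threshold numbered 0 to 2 for either question. All repeats called in serum/LIF numbered 72 to 117, against 115. Same-numbered libraries did not deviate together in the repeats (correlations of −0.06 to 0.04). This does not settle whether the numbers stand for shared cultures or batches, which the labels do not say. With a replicate block the interaction called 1 of 5, and Trim28 lost its call after RA. In the block test of ratios 0 and 0 passed, but its 64 arrangements allow no exact p under 0.0312, which the ratio of IAPEz-int to IAPLTR1_Mm reached in both questions (adjusted p = 0.188), so it says nothing about their stability.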
